A study of Mus musculus with 4 samples.

Results

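The genes described here are Wnt1, Wnt8b, Rspo2, Shh, Bmp4, Pax6, Sox2 and Ccnd1, 8 genes that had been reported in forebrain or eye as bound or regulated by the homeobox transcription factor Six3. They were chosen by name, and all 8 matched a symbol among the 21627 protein-coding genes of chromosomes 1 to 19 and X. Six3 binding was profiled by CUT&RUN, in which an antibody directs a nuclease fusion to a protein on chromatin and the released DNA is sequenced. The cells were primary mouse neural stem cells, labelled WT, in which Six3 had been overexpressed, so that binding of added Six3 rather than of the cells' own level was measured. They had been kept with EGF and FGF and then moved for 3 h to neurobasal medium with B-27. There were 3 libraries against FLAG-tagged Six3 and 1 with IgG. The analysed table pooled its regions without a column for any library, so no value below has a replicate error, FLAG could not be set against IgG, and depth is unknown. It holds no RNA level, so the labelled cell type could not be checked by its markers.

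Six3 is best known as a repressor of Wnt signalling in the anterior neural plate, where Wnt activity would otherwise give the tissue a more posterior fate. In the ventral forebrain it is also known as an activator of Shh, acting through an enhancer far upstream of the gene. Wnt1 and Wnt8b encode Wnt ligands, Rspo2 encodes an R-spondin that strengthens Wnt signalling at the receptor, and Bmp4 encodes a BMP ligand that patterns the dorsal midline and the lens. Pax6 and Sox2 encode transcription factors of neural progenitors and of the eye, and Ccnd1 encodes cyclin D1, which drives cells through G1.

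For each called region the table gives the highest coverage signal and the signal summed over its bases, both as the authors scaled and deposited them. The highest signals fall on 2 ladders. They are whole multiples of 1.9 in 945651 regions, the 1.9-step set, and of 0.48 in 632860 regions, the 0.48-step set, while 3 of the 1578514 regions belong to neither. Heights are given in these steps, and heights of the 2 sets need not be on one scale. The lowest height in either set is 2 steps, a signal of 3.8 or 0.96. It is the height of 36.5% of the 1.9-step regions and 75.8% of the 0.48-step regions. No source used here ties a set to a library.

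All 8 genes carried called regions, as most genes did, and their highest signals in the body stood between percentiles 23.3 and 95.2 of genes of similar length. The gene bodies held 162 regions, of which 101 had 1.9 steps and 61 had 0.48 steps. Both sets were present in each of the 8 bodies. Over all protein-coding genes 93.3% had any region in the body, 83.6% had a 0.48-step region and 80.7% had both. In 5 of 8 genes (Wnt1, Wnt8b, Rspo2, Pax6 and Ccnd1) the body held a 1.9-step region of 4 or more steps, a signal of 7.6 or more, against 69.2% of all protein-coding genes. That share depends on gene length. With genes ranked by length and divided into 10 equal groups, it was 29.1% in the group of Wnt1 and Sox2, 45.8% in that of Bmp4 and 62.3% in that of Shh and Ccnd1. It was 84.1% in the group of Wnt8b, 92.4% in that of Pax6 and 99.6% in that of Rspo2. The members' count was therefore near the background. Each gene was also ranked against the 2161 or 2162 other genes of its length group, as a percentile that puts a gene in the middle of those tied with it. In 4 of 8 genes (Wnt1, Wnt8b, Rspo2 and Ccnd1) the highest signal in the body exceeded the group's median, against 32.0% of all protein-coding genes.

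**Figure D1:**
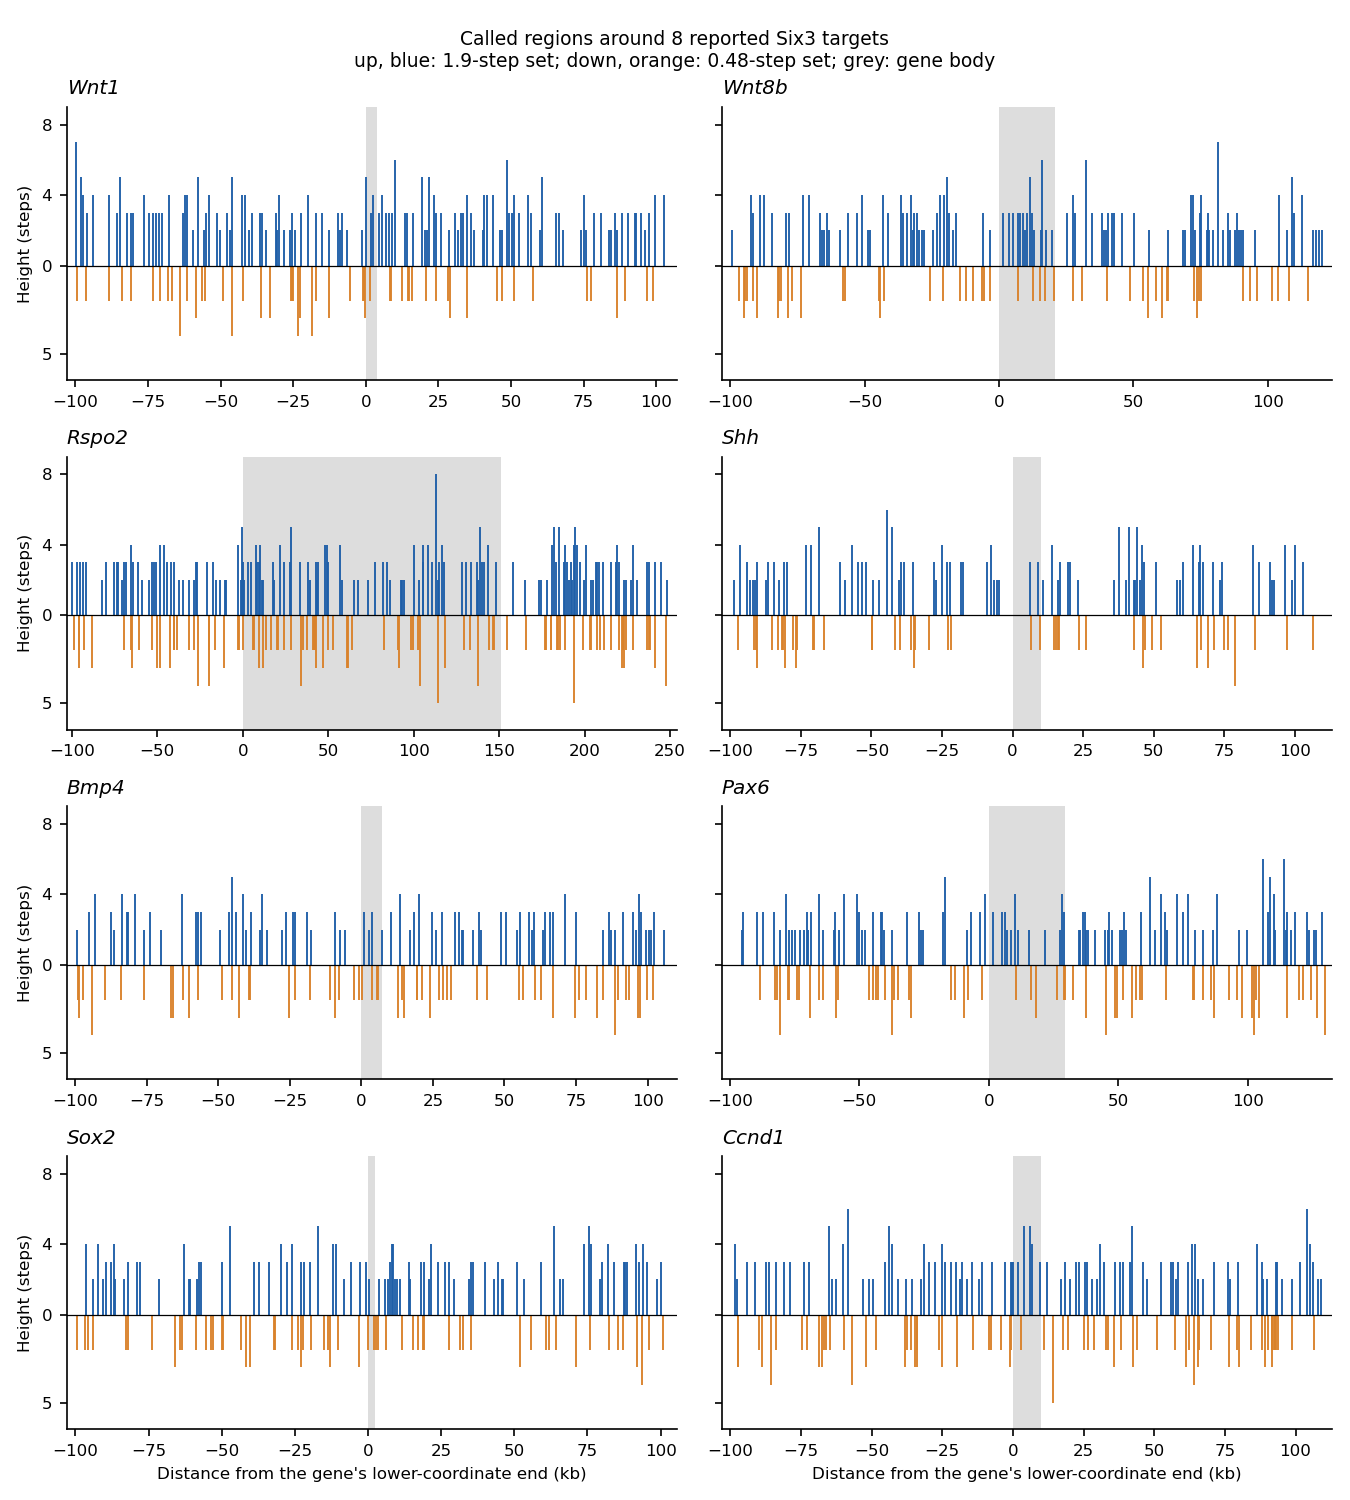
Called regions from 100 kb before to 100 kb after each of the 8 genes, by distance from the gene's lower-coordinate end in kb (horizontal) and height in steps of the region's own set (vertical). Blue lines pointing up are 1.9-step regions, orange lines pointing down are 0.48-step regions, and the grey band is the gene body. Regions lie throughout every interval, and the tallest line, of 8 steps, lies inside Rspo2.

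Heights within 100 kb of the genes were distributed much as in the whole table. Of the 803 1.9-step regions in these intervals, 34.6% were 2 steps high and 44.0% were 3 steps high, against 36.5% and 40.8% of the whole set. Regions of 4 or more steps made up 21.4% against 22.8%, and those of 6 or more steps made up 1.49% against 1.64%. Of the 496 0.48-step regions, 5.04% had 4 or more steps, against 4.34% in the whole set. Median widths were 462 bp against 455 bp for the 1.9-step set and 198.5 bp against 195 bp for the 0.48-step set. A 1.9-step region was overlapped by 1 bp or more by 172 of the 496 0.48-step regions, or 34.7%, against 27.7% in the whole table. That excess lay largely around Wnt1, where 30 of 53 did so, and Rspo2, where 37 of 93 did. At the other 6 genes the share ran from 25% at Bmp4 to 33.3% at Pax6 and Ccnd1.

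**Figure D2:**
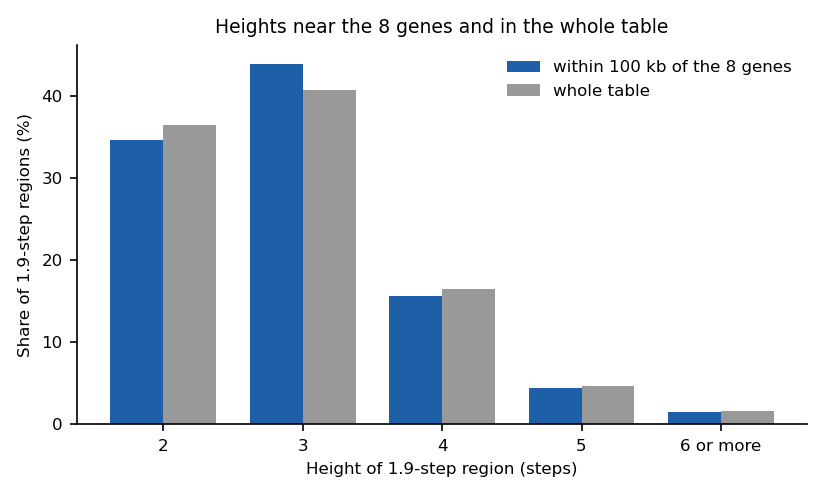
Share of 1.9-step regions, in percent (vertical), by height in steps (horizontal), within 100 kb of the 8 genes (blue, 803 regions) and in the whole table (grey, 945651 regions). The bars of each pair are of similar height, with 21.4% and 22.8% of regions at 4 or more steps.

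Promoters are shown first because they are the positions where a called region can be set beside sequence. The 8 genes were matched by symbol to a RefSeq table of windows from 250 bases before to 50 after the transcription start, build GRCm38.p6, and 5 matched, with 6 windows because Pax6 has 2 starts. Shh, Rspo2 and Ccnd1 are named only. A region of either set lay on a window in 3 of these 5 genes (Wnt1, Bmp4 and Sox2), against 45.0% of the 17273 genes with an entry. A 1.9-step region lay on the windows of Wnt1 and Bmp4, against 36.7% of those genes, and a 0.48-step region on those of Wnt1 and Sox2, against 13.9%. Only Wnt1 of the 5 had both, which 4.78% of the genes had. The regions on the Bmp4 and Sox2 windows were 2 steps high, with signals of 3.8 and 0.96, the lowest height of their sets. The windows were searched on both strands for TGATAC, the core of sites bound by Six3 and its relatives, and for ATTA, the core of many homeodomain sites. The 250 bases before the start are printed for the 3 promoters with a region and, for contrast, for Wnt8b, which has none but holds the most ATTA matches. They run 5′ to 3′ on the gene's strand, with capitals marking ATTA or its reverse complement TAAT.
Wnt1 (chr15:98789607-98789856, plus strand): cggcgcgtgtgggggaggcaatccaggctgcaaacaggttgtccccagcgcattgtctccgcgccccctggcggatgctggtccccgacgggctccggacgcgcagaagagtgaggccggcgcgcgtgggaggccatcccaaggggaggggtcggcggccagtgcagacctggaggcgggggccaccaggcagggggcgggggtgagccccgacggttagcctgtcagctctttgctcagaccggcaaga
Sox2 (chr3:34649745-34649994, plus strand): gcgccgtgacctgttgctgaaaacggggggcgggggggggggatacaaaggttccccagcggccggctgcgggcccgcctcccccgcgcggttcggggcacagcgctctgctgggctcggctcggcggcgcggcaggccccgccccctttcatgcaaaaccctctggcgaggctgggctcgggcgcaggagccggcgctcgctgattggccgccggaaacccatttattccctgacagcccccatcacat
Bmp4 (chr14:46390670-46390919, minus strand): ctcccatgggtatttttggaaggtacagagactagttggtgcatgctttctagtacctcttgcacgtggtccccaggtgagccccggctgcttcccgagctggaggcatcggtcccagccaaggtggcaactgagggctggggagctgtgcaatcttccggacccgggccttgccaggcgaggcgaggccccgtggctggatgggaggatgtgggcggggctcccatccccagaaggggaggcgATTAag
Wnt8b (chr19:44493222-44493471, plus strand): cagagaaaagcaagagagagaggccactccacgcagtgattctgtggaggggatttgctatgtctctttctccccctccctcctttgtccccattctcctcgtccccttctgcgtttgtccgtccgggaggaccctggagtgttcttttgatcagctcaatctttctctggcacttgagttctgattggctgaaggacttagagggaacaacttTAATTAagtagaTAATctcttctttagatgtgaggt

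The printed Wnt1 and Sox2 promoters are rich in G and C, at 71.6% and 72% of bases, and hold neither core. Bmp4, at 63.2%, holds 1 ATTA match directly before its start. Wnt8b, at 48.4%, holds 3, of which a pair shares bases in one run. Of 21044 promoters, 49.3% had an ATTA match in these 250 bases and 3.91% had a TGATAC match. Over the full windows of 300 bases the shares were 51.7% and 4.43%. For TGATAC the share was 4.36% of the windows with a called region and 4.48% of those without one. The only TGATAC match in the 6 windows was in Sox2, 31 bases into the transcript, on the reverse strand. There the sequence, with the match in capitals, reads ttcaaaaaaGTATCAggagttgtc (chr3:34650016-34650039). A 0.48-step region covered it and a 1.9-step region did not. Both Pax6 windows held 2 ATTA matches and no called region. A match describes letters only and does not show a bound site.

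Wnt1 carried the tallest promoter region of the 5 genes with a window. The gene (chromosome 15, 98789857 to 98793830, mm10) is 3974 bp long and held 5 regions, against a median of 2 in its length group. A 1.9-step region from 98789794 to 98790302 spanned the transcription start and reached 5 steps, a signal of 9.5, with its maximum 322 bp inside the gene. A 0.48-step region from 98789370 to 98789910 overlapped it and reached 3 steps, with its maximum 255 bp before the start. The stretch that both cover takes in the 3′ end of the printed Wnt1 sequence. Further inside, 1.9-step regions of 3 and 4 steps lay at 98791314 to 98791674 and 98792230 to 98792674. The highest signal stood at percentile 93.8 of the length group, whose median was 5.7. The surroundings of Wnt1 were high too. Chromosome 15 held 467 1.9-step regions per Mb, against 175 to 394 on the other chromosomes. The summed 1.9-step signal of its 500 kb bin was 1.79 times the autosomal median, the number of 1.9-step regions 1.53 times, and that of 0.48-step regions 0.921 times. Among the 89 other genes of its length group on chromosome 15 the highest signal of Wnt1 stood at percentile 78.1. Of the 116 genes of its length group in bins above 1.6, 63.8% had a body region of 4 or more steps. Of the 596 genes with a promoter entry in such bins, 57.7% had a 1.9-step region on a promoter and 6.71% had regions of both sets. Per Mb, the Wnt1 body held 1.31 times as many 1.9-step regions as the 100 kb on either side (percentile 60.2). Wnt10b, another Wnt ligand gene in the same bin, reached 5.7, at percentile 36.3. How much of the Wnt1 signal belongs to the raised surroundings was not tested.

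Within 100 kb of Wnt1 the tallest region, of 7 steps (98689724 to 98690412), lay at the very edge of the interval, with Rnd1 as the nearest gene at 12.6 kb. Over the 8 genes the highest signal in the last 10 kb inside the interval ran from 5.7 to 13.3, and in the first 10 kb outside it from 5.7 to 9.5, with a region across the edge counted inside. At Wnt1 the 7-step region lies across the edge, and without it the highest signal within 100 kb would be 11.4, the median of the length group.

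Wnt8b had many low 1.9-step regions along its whole body. The gene (chromosome 19, 44493472 to 44514273) held 15 1.9-step regions and 5 0.48-step regions. The density of 1.9-step regions, 721 per Mb, stood at percentile 98.3 of its length group, whose median was 411 per Mb, and exceeded all 76 others of the group on chromosome 19. The 100 kb on either side held 440 per Mb, so the body held 1.64 times as many (percentile 95.9). In the 500 kb bin the number was 1.09 times the autosomal median. Of the 15 regions, 13 were 2 or 3 steps high. The other 2 reached 5 steps at 44504533 to 44505291 and 6 steps, a signal of 11.4, at 44509265 to 44509495, 15.9 kb from the start. The latter put the highest signal at percentile 91.6. By number the 0.48-step set showed no such density, with 240 per Mb at percentile 45.5, and all 5 of its regions were 2 steps high. Of these 5, 4 overlapped a 1.9-step region. By the share of the gene covered, however, the 2 sets ranked alike. The 1.9-step regions covered 29.0% of Wnt8b (percentile 87.4), and the 0.48-step regions covered 8.74% (percentile 85.1). The tallest region within 100 kb, of 7 steps, lay 81.4 kb from the start inside Hif1an (44574608 to 44575145).

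Rspo2 held the tallest region of all 8 intervals. The gene (chromosome 15, 43020788 to 43171594) is 150807 bp long and held 58 1.9-step and 39 0.48-step regions. At 43133431 to 43133981 a 1.9-step region reached 8 steps, a signal of 15.2, a height that 1490 of the 1.9-step regions (0.158%) reached or passed. The next tallest in the body had 5 steps. A 0.48-step region of 5 steps lay close by at 43134719 to 43134910, and 0.658% of that set reached 5 steps. It did not overlap the 8-step region itself, but overlapped another 1.9-step region. The highest signal stood at percentile 95.2 of the length group, or 90.5 against the 95 others on chromosome 15. This rests on a single region. By summed signal Rspo2 stood at percentile 35.8, and its 385 1.9-step regions per Mb stood at 42.7. Its 500 kb bin was at 1.03 times the autosomal median, against 1.79 at Wnt1. A second 0.48-step region of 5 steps lay outside the gene at 43214014 to 43214729, 35.7 kb from Eif3e.

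The Shh gene itself was among the sparser of the 8. Shh (chromosome 5, 28456840 to 28467101) held 4 regions, against a median of 7 in its length group. Its 1.9-step regions reached 3 steps at 28462695 to 28463285 and at 28465581 to 28466271, and both 0.48-step regions were 2 steps high. The highest signal, 5.7, stood at percentile 23.3, and 195 1.9-step regions per Mb stood at percentile 11.6. The 100 kb on either side held 395 per Mb, so that the body held 0.493 times as many (percentile 9.89). The tallest region within 100 kb, of 6 steps, lay downstream inside Rbm33 (28412200 to 28412844). On the upstream side 3 regions of 5 steps lay 27.7 to 33.9 kb from the start.

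Several, though not all, of the known forebrain enhancers of Shh lie far upstream, so that side was followed for 1 Mb. Upstream was taken as higher coordinates, since the limb enhancer of Shh is known to lie upstream within Lmbr1, which the gene table places at 29229802 to 29378421. The interval held 679 regions, of which 411 had 1.9 steps and 268 had 0.48 steps. Among 2394 autosomal windows of 1 Mb, which had a median of 637, this stood at percentile 75.4. The 1 Mb on the other side of the gene held 653, at percentile 59.9. The number of upstream regions per 100 kb ran from 58, in the first and in the 300 to 400 kb bins, to 86 between 700 and 800 kb. The highest upstream signal, 11.4, was below the median of 13.3 over the windows (percentile 18.6), and 4 regions had it, against a median of 5 regions of 6 or more steps. Downstream the highest was 13.3.

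All 4 of the tallest upstream regions lay between 472 and 534 kb from the Shh start. Their positions were 28938489 to 28938729, 28966354 to 28966654, 28984797 to 28985418 and 29000319 to 29000947, a stretch of 62.5 kb without a protein-coding gene. The nearest such gene, Rnf32, was 192 to 254 kb away. Of these 4, 3 overlapped a 0.48-step region. The share of all 1.9-step regions that do so was not calculated, so this count has no background. The grouping was noticed after the values were seen. Of the 15284 autosomal 1.9-step regions of 6 or more steps, 18.3% were the first of at least 4 within a stretch of that length. In all, 27 upstream regions had 5 or more steps. Among those tied at 5 steps, the one with the highest summed signal was 1165 bp wide and lay inside Rnf32 at 29214342 to 29215506. The positions of the Shh brain enhancers were not used here, so overlap with them was not analysed. The 3 protein-coding genes of the interval, Rnf32, Lmbr1 and Nom1, each reached 9.5, at percentiles 63.7, 19.8 and 72.7 of their length groups.

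**Figure D3:**
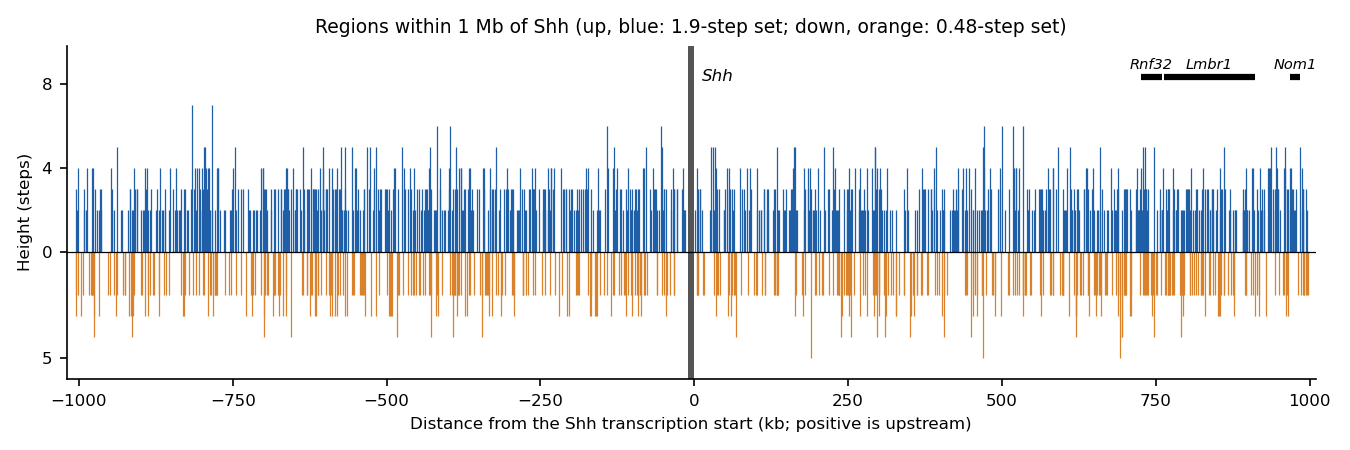
Called regions within 1 Mb of Shh, by distance from its transcription start in kb (horizontal, upstream positive) and height in steps of the region's own set (vertical). Blue lines pointing up are 1.9-step regions, orange lines pointing down are 0.48-step regions, the grey bar is Shh and black bars are the other protein-coding genes upstream. The 4 upstream regions of 6 steps stand between 472 and 534 kb, and the tallest downstream ones reach 7 steps.

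Bmp4 held many regions for its size, but low ones. The gene (chromosome 14, 46383525 to 46390669) held 8 regions, against a median of 4 in its length group (percentile 95.7), with 4 in each set. The 1.9-step regions were 2 or 3 steps high, with the 3-step ones at 46384156 to 46385052 and 46387041 to 46387346. All 4 0.48-step regions were 2 steps high. A 2-step 1.9-step region from 46390479 to 46390852 covered the start and 233 bases of the promoter window, including the ATTA match printed above. The highest signal, 5.7, stood at percentile 36.3, whereas by summed signal Bmp4 stood at percentile 70.9. The density of 0.48-step regions, 560 per Mb, was 2.0 times that of the 100 kb on either side (percentile 85.0). Within 100 kb the tallest region had 5 steps (46337964 to 46338918) and lay 45.1 kb beyond the end of Bmp4, its nearest protein-coding gene. The highest signal in the interval, 9.5, was the lowest of the 8 genes together with Sox2, at percentile 18.5. The noncoding genes Gm15222 and Gm15217 share 1805 and 84 bp with Bmp4, and regions there cannot be given to one or the other.

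In its body Pax6 stood below the middle on height and on the density of both sets. The gene (chromosome 2, 105668896 to 105698410) held 12 1.9-step and 6 0.48-step regions, against a median of 20 in all. Its tallest regions, of 4 steps, lay at 105678861 to 105679283 and, near the end, at 105697068 to 105697371. The highest signal, 7.6, stood at percentile 26.3 against a group median of 9.5. The density of 1.9-step regions was 407 per Mb in the body and 425 per Mb on either side. Of the 0.48-step set, 1 region had 3 steps, at 105687101 to 105687167, and the other 5 had 2. The tallest regions within 100 kb were a pair of 6 steps at 105774316 to 105775089 and 105782355 to 105783117, 106 and 114 kb from the first Pax6 start. Both lay inside the neighbouring gene Elp4, whose introns are known to hold enhancers of Pax6. Whether either overlaps one of those enhancers was not analysed here. Elp4 shares 1091 bp with the end of Pax6, and the noncoding Pax6os1 shares 1435 bp with its start.

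Sox2 had the lowest highest signal of the 8. The gene (chromosome 3, 34649995 to 34652461) has 2467 bp and held 3 regions. One 1.9-step region of 2 steps, a signal of 3.8, lay at 34650269 to 34650723 (percentile 31.9). The 0.48-step regions, both of 2 steps, lay at 34649728 to 34650055, which covers the whole printed promoter, and at 34651907 to 34651997. These 2 regions made a density of 811 per Mb, 2.84 times that on either side (percentile 91.4), in a short gene. The density counts the first region whole, although its midpoint lies 104 bp before the start. By the share of the gene covered by 0.48-step regions, 6.16%, Sox2 stood at percentile 63.9. Within 100 kb the tallest regions were 4 of 5 steps, at 47.0 and 16.9 kb before the start and 63.6 and 75.6 kb after it. The first pair lies within the noncoding gene Sox2ot (34560381 to 34677993), which contains all of Sox2. The interval held 721 regions per Mb, at percentile 75.5.

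The 1.9-step regions of Ccnd1 covered more of the gene than in most genes of similar length, and its 0.48-step regions were few. The gene (chromosome 7, 144929931 to 144939831) held 6 1.9-step regions, all of 3 steps or more, and 1 0.48-step region of 2 steps. Neighbouring regions of 5 steps lay at 144933303 to 144934311, 1009 bp wide, and at 144935430 to 144936191, followed by one of 4 steps at 144936350 to 144936915. The highest signal, 9.5, stood at percentile 84.0, and the summed signal, 14251, at percentile 94.8 against a median of 7098. The 1.9-step regions covered 33.0% of the gene, against a median of 20.3% (percentile 87.0). The 0.48-step set went the other way, with 101 per Mb in the body against 340 per Mb on either side, 0.297 times (percentile 9.50). The body value is 1 region, at percentile 15.9 by density. The surroundings were rich in this set, with 329 per Mb within 100 kb, at percentile 97.3. Just outside the gene, at 144943899 to 144944317, lay a 0.48-step region of 5 steps. Within 100 kb the tallest were of 6 steps, at 144871197 to 144872169, 6.44 kb from Fgf4, and at 145033680 to 145034347. The interval held 786 regions per Mb, at percentile 92.3, and the summed 1.9-step signal of its 500 kb bin was 1.17 times the median over autosomes. The gene LTO1 shares 818 bp with Ccnd1.

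Across the 8 intervals of 100 kb on each side, the highest signal exceeded the median of the length group at 3 of 8 genes (Wnt1, Wnt8b and Rspo2), against 31.4% of all protein-coding genes. It equalled the median of 11.4 at Shh, Pax6 and Ccnd1 and lay below it at Bmp4 and Sox2. With 50 kb on each side the 3 genes were Wnt1, Rspo2 and Shh, against 32.7% of all genes, so that Wnt8b lost and Shh gained the call. The number of regions per Mb exceeded the median at 7 of 8 genes, all but Shh, against 50% of all genes, as a median fixes. At 3 of these 7, Rspo2, Bmp4 and Pax6, it did so by little, at percentiles 55.2 to 61.5, and with 200 kb on each side these 3 fell below it. In order of regions per Mb the genes ran Wnt1 (838), Ccnd1 (786), Sox2 (721), Wnt8b (697), Pax6 (697), Bmp4 (681), Rspo2 (664) and Shh (614). With no replicate error, neighbours in this order cannot be told apart. Against genes of similar length on chromosome 15 alone, the Wnt1 interval stood at percentile 50.6 for regions per Mb and 50 for highest signal, and the Rspo2 interval at 23.2 and 81.6.

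**Figure D4:**
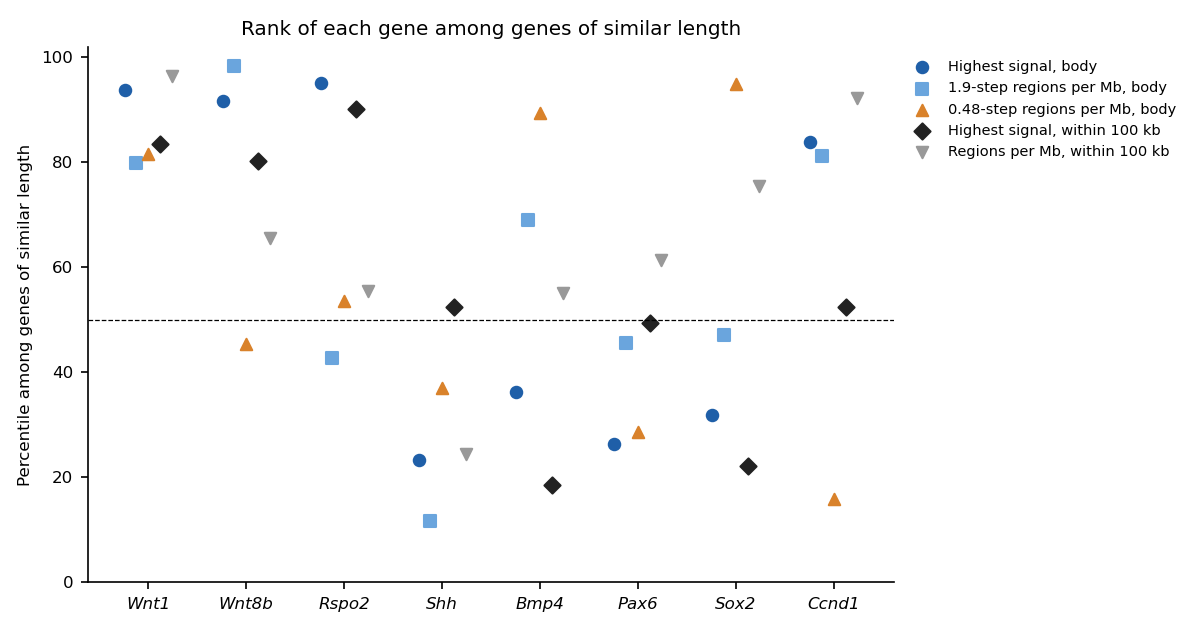
Percentile of each of the 8 genes among genes of similar length (vertical) for 5 measures, given by symbol and colour: highest signal and density of either set in the gene body, and highest signal and density of all regions within 100 kb. The dashed line is percentile 50. Wnt1, Wnt8b, Rspo2 and Ccnd1 lie above 80 for highest signal in the body, and Shh, Bmp4, Pax6 and Sox2 lie below 40.

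The families and pathways of these genes were listed for comparison, and percentiles are of the highest signal in the body. Because of ties the median percentile over all protein-coding genes was 54.9. The 19 Wnt ligands had the same median, and 15 of 19 had a region of 4 or more steps (78.9%). Among the ligands other than the 2 reported targets, Wnt7a reached 15.2 and Wnt11 13.3, and Wnt7b, Wnt6 and Wnt9a tied at 11.4. Wnt1 and Wnt8b were thus among the higher ligands but below Wnt7a and Wnt11 in percentile. Of the R-spondins and their receptors 8 of 9 had such a region, with a median of 56.2. Rspo2 exceeded its relatives, through a single region, with Rspo3 at 9.5, Rspo4 at 7.6 and Rspo1 at 5.7. The ubiquitin ligase Znrf3 and the receptor Lgr6 followed at 13.3. Rspo2 is also the longest R-spondin gene, at 150807 bp against 82762 bp for Rspo3, 32022 bp for Rspo4 and 22702 bp for Rspo1. Among genes of similar length those relatives stood at percentiles 41.3, 26.3 and 9.44. Of the Wnt receptors, mediators, targets and antagonists 25 of 32 had one, with a median of 55.9, led by Lef1, a transcription factor of the pathway, with 17.1, followed by Tcf7l1, the receptor Lrp6 and the inhibitor Apc, tied at 13.3.

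Of the Hedgehog pathway 12 of 17 genes had a region of 4 or more steps (70.6%, median percentile 41.3). These genes have a median length of 25870 bp, against 17330 bp over all protein-coding genes. Gli2, a transcription factor, Disp1, which releases the ligand, and the inhibitor Sufu were among the genes that reached 11.4, while the ligand genes Ihh and Dhh reached 5.7 and 7.6. Of the BMP pathway 14 of 22 had one (median 38.8), with 11.4 at the receptor gene Bmpr1b and at Bmp5, 9.5 at Bmp6 and 6 other genes, and no region in the bodies of Id1 and Msx1. Among Pax genes 8 of 9 had one (median 41.3), led by Pax2 and Pax9 with 11.4, with Pax3, Pax5 and Pax7 tied at 9.5. Of the 5 SoxB genes, which are short, 0 had one. Sox21 reached 5.7, Sox14 reached 3.8, Sox1 held only a 0.48-step region of 0.96, and Sox3 held none. Of the G1 cyclins, kinases and inhibitors 12 of 17 had one (median 63.7). Cdk6 reached 15.2 and Ccne2 11.4. Tied with Ccnd1 at 9.5 were Ccnd2, Ccnd3 and Rb1, which are longer, and Ccne1, Cdk2, Cdkn1b and Cdkn2d, which are shorter. The longer ones stood at percentiles 63.7, 41.3 and 19.8. The shorter ones stood at 84.0, 88.4, 88.4 and 93.8, against 84.0 for Ccnd1. Liver genes, which belong to another tissue, gave 13 of 18 (median 48.3), led by Cps1 with 13.3, Cyp7a1 with 11.4 and Apob with 9.5, and Apoa1 held no region. The list shares ran from 63.6% to 88.9% apart from the SoxB genes, where 69.2% of all genes had such a region. They are not adjusted for length, on which the share depends, so they cannot be read against 69.2%. Median lengths ran from 2467 bp in the SoxB list to 96611 bp in that of the R-spondins and their receptors. The percentiles compare genes of similar length.

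**Figure D5:**
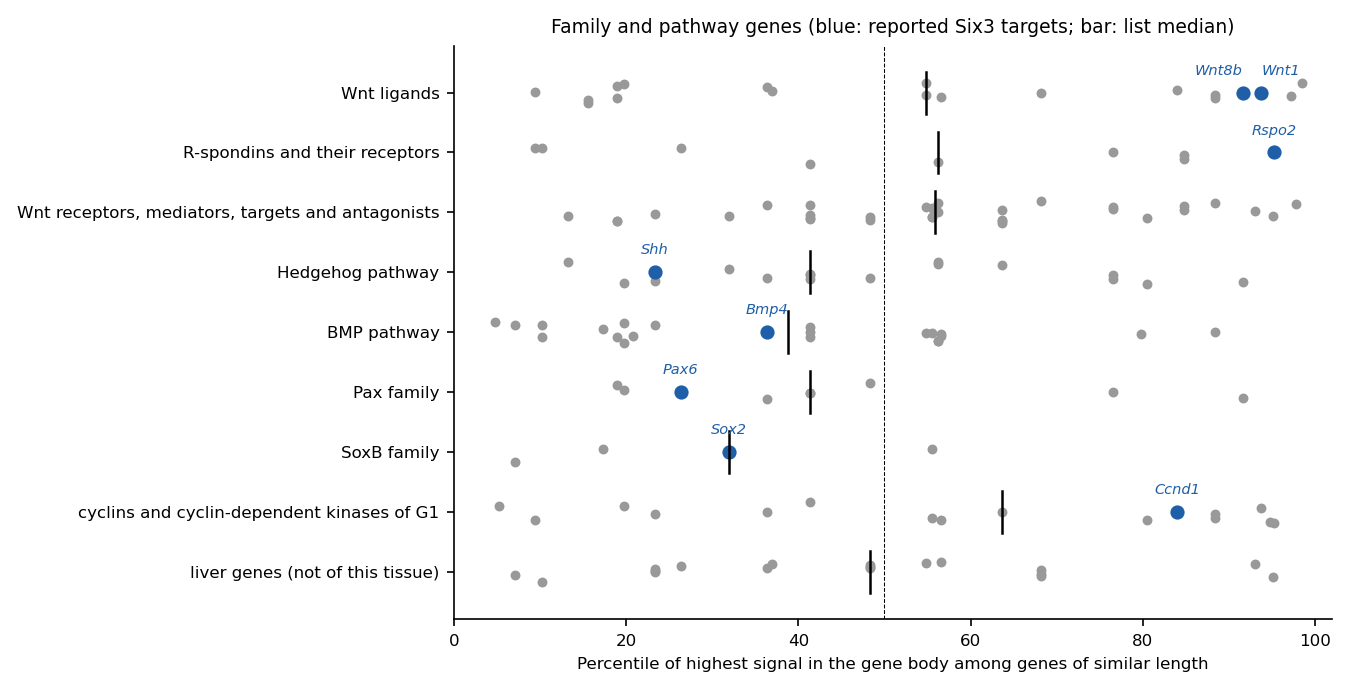
Percentile of the highest signal in the gene body among genes of similar length (horizontal), for the genes of 9 lists (rows). Each point is a gene, blue points are the 8 reported targets, black bars are list medians and the dashed line is percentile 50. Medians run from 31.9 in the SoxB family to 63.7 in the G1 cyclins and kinases, and liver genes lie at 48.3.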

How the data were processed

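The authors deposited a single table of regions without a header, in the 6-column layout of SEACR. Its values are the highest coverage signal in each region and, as a score, the signal summed over its bases, both as deposited. The tools named, per the submitters' processing notes, are SEACR, Bowtie2 and deepTools, with build mm10, and the table's name points to spike-in scaling. No version, order, SEACR mode or way of combining libraries is given there. Both scores are the authors' own and only describe or rank regions within the table.

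Heights within 0.001 steps of a whole multiple of 1.9 or of 0.48 defined the 2 sets, and a multiple of both was put in neither. Genes came from a RefSeq table of GRCm38.p6, which shares mm10 coordinates. A region belonged to an interval if it overlapped it by 1 bp, and was then counted whole. Similar length means the same of 10 equal groups by length. Bins were 500 kb, over the autosomal median. No test was run, since no column held a single library. The members, lists and steps were chosen with earlier results of these data known. Genes were named by rule: the 8 members, the tallest regions of each interval and their nearest genes, and up to 3 leading genes and 2 without a region per list; other relatives were chosen after their values were seen. The calculations were tested on simulated data. Python 3.11.15, numpy 2.4.6, pandas 2.3.3 and matplotlib 3.10.9 were used. Alternatives changed the interval, the overlap rule, the length groups, the set and the score.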

Additional observations from a re-analysis of the deposited data

How the results depend on the processing

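Of 26 alternative values of the counts, 20 stayed within 1.5 times the main count, though not always with the same genes. This tally is a weak measure of stability, since some values could hardly move. All 8 genes already had a 0.48-step region in the body, so a longer body could only leave that count at 8. The limit of 1.5 times is also wide for such small counts. A limit of 3 steps gave 7 genes in place of 5 and still fell within it. The share of all genes at 3 or more steps was not calculated. It cannot be below the 69.2% at 4 or more, so the count of 7 has no background here. With 3 or more steps required, 3 genes rather than 8 had a 0.48-step region in the body, against 61.2% of all genes. The highest signal within 100 kb exceeded the median at 1 gene (Ccnd1) for the 0.48-step set alone, against 28.9% of all genes. Summed signal per Mb did so at 5, against 50% of all genes, so that 5 and 3 are not on one background. With 200 kb on each side, 4 genes rather than 7 exceeded the median number per Mb, again against 50%. Upstream of Shh, 500 kb held 314 regions. With 1 kb on each side of the start, or of both gene ends for genes without a window, 6 of 8 genes had a region there, in place of 3 of 5, and so did 85.6% of all genes. For the percentiles of highest signal in the body, 21 of 32 alternative values fell outside a binomial interval around the main one, and 11 fell inside. That interval reflects only the 2161 or 2162 genes of the length group and not the error of the signal. It is narrow, so a move from 93.8 to 95.0 at Wnt1 fell outside it. Percentiles among 76 to 228 genes of the same chromosome were judged by it too. The widest moves came with summed signal, from 95.2 to 35.8 at Rspo2 and from 36.3 to 70.9 at Bmp4. No paired analysis was possible because the table has no column for a library, and for the same reason no replicate could be left out. Depth per library is unknown, so the smallest region that could have been called is unknown too.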
